A study of Mus musculus with 67 samples.

Results

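Among 22 passage 1 cells grown from mouse aorta, 15 held a normalised Spp1 count of 10 or more and 7 held less, out of 67 cells sequenced at both passages. Spp1 encodes osteopontin, and the 2 groups are called Spp1-positive and Spp1-negative below. Because the groups were made from the measured Spp1 value, the Spp1 difference itself is a description and not a finding, and every gene compared between them was read from the same cells that set the split. The values are read counts per gene divided by 1 size factor per cell.

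The study sequenced RNA of individual vascular smooth muscle cells, the contractile cells of the artery wall, isolated from the descending aorta of male C57Bl6 mice 3 to 4 months old. All cells grew in DMEM with 10% fetal bovine serum and 1% penicillin and streptomycin; the plates stood for 5 days before passage 1 cells were detached with trypsin, and subculture gave the 45 passage 2 cells. Cells were caught on a Fluidigm C1 microfluidic chip and each became 1 library, so no cell barcodes were shared. No label ties a cell to an animal or a culture, every passage 1 library carries a different label prefix from every passage 2 library, and passage and library set cannot be told apart. The cells of a passage therefore counted as 1 sample, no p-value or standard error was computed, and every SD is a spread between cells. The labels name no other treatment and no knockout, and cells are numbered only to name them.

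Osteopontin is a secreted, acidic phosphoprotein that binds cells through integrins and CD44, is cut by thrombin and matrix metalloproteinases, and slows the growth of hydroxyapatite crystals. Contractile smooth muscle of a healthy artery holds little of it, and cultured, proliferating or injured smooth muscle is known to make more. In plaques and calcified arteries it is a common marker of smooth muscle cells that have left the contractile state. Fibroblasts, osteoblasts and macrophages can make it as well.

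The 250 bases before the Spp1 start are shown because the split rests on transcripts of this gene, together with those of Mxra7 and Aspn, which were among the genes whose values followed Spp1 most closely over the 22 cells. All are from RefSeq on build GRCm38.p6, written 5′ to 3′ on the gene's own strand, and the capitals mark matches to the motifs named after them. The Spp1 window is chr5:104434861-104435110 on the plus strand, the Mxra7 window is chr11:116828047-116828296 on the minus strand and the Aspn window is chr13:49544193-49544442 on the plus strand. Spp1 and Mxra7 have 2 starts in the table, of which the one with the lower coordinate was used. That is the more upstream start of Spp1 and, on the minus strand, the more downstream start of Mxra7.
Spp1: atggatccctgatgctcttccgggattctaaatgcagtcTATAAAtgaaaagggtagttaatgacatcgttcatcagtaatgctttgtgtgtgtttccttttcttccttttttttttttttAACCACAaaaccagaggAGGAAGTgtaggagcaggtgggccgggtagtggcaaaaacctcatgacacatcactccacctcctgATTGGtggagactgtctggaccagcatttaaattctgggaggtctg
Mxra7: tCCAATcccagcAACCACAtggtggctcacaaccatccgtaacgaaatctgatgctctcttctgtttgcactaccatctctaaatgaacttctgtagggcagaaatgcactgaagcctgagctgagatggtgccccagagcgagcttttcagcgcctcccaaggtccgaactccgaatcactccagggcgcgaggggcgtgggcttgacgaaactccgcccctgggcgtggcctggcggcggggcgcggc
Aspn: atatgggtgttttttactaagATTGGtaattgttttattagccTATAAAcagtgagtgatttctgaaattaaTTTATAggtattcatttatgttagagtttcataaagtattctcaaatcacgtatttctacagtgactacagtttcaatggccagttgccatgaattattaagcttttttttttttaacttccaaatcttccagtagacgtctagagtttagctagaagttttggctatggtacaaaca

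The Spp1 window held the RUNX motif AACCACA 129 bases before the start, the ETS motif AGGAAGT 112 bases before it, TATAAA 211 bases before it and the CCAAT box on the opposite strand 46 bases before it. Both strands were searched, and no match overlapped another. Of 32851 promoter windows of the same length, 4.40% held the RUNX letters, 7.69% the ETS letters, 12.4% TATAAA and 33.8% CCAAT. The SOX motif ACAATG and the AP-1 motif TGACTCA, present in 10.7% and 4.46% of windows, had no match in the Spp1 window. The RUNX letters stood 238 bases before the Mxra7 start, and of the 10 genes most like Spp1, 8 were in the table and 1 held them. These matches describe the letters only.

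Spp1 lies on chromosome 5 at 104435118 to 104441050 (GRCm38, GENCODE M21, ENSMUSG00000029304) and overlaps Gm42793. In the 15 positive cells its normalised count had a lowest value of 35.7, a median of 561 and a highest of 7336, with a mean of 1657 ± 2285 (SD). The 7 negative cells held values of 0 to 6.36 with a median of 1.16. The positive group held 34745 Spp1 reads in all (exact Poisson 95% interval 34381 to 35112) and the negative group 16 (9.15 to 25.98), and these intervals cover counting error only.

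The positive cells were themselves spread over more than 2 orders of magnitude. Cells 4, 5 and 18 held the most, at 7336, 5108 and 5014. Cells 3, 7, 15 and 21 lay between 1195 and 1630, cells 6, 11 and 1 at 561, 414 and 198, and cells 19, 20, 2, 10 and 22 between 35.7 and 119.8. The values nearest the threshold of 10 were 35.7 in cell 22, just inside, and 6.36 in cell 14, just outside.

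**Figure D1:**
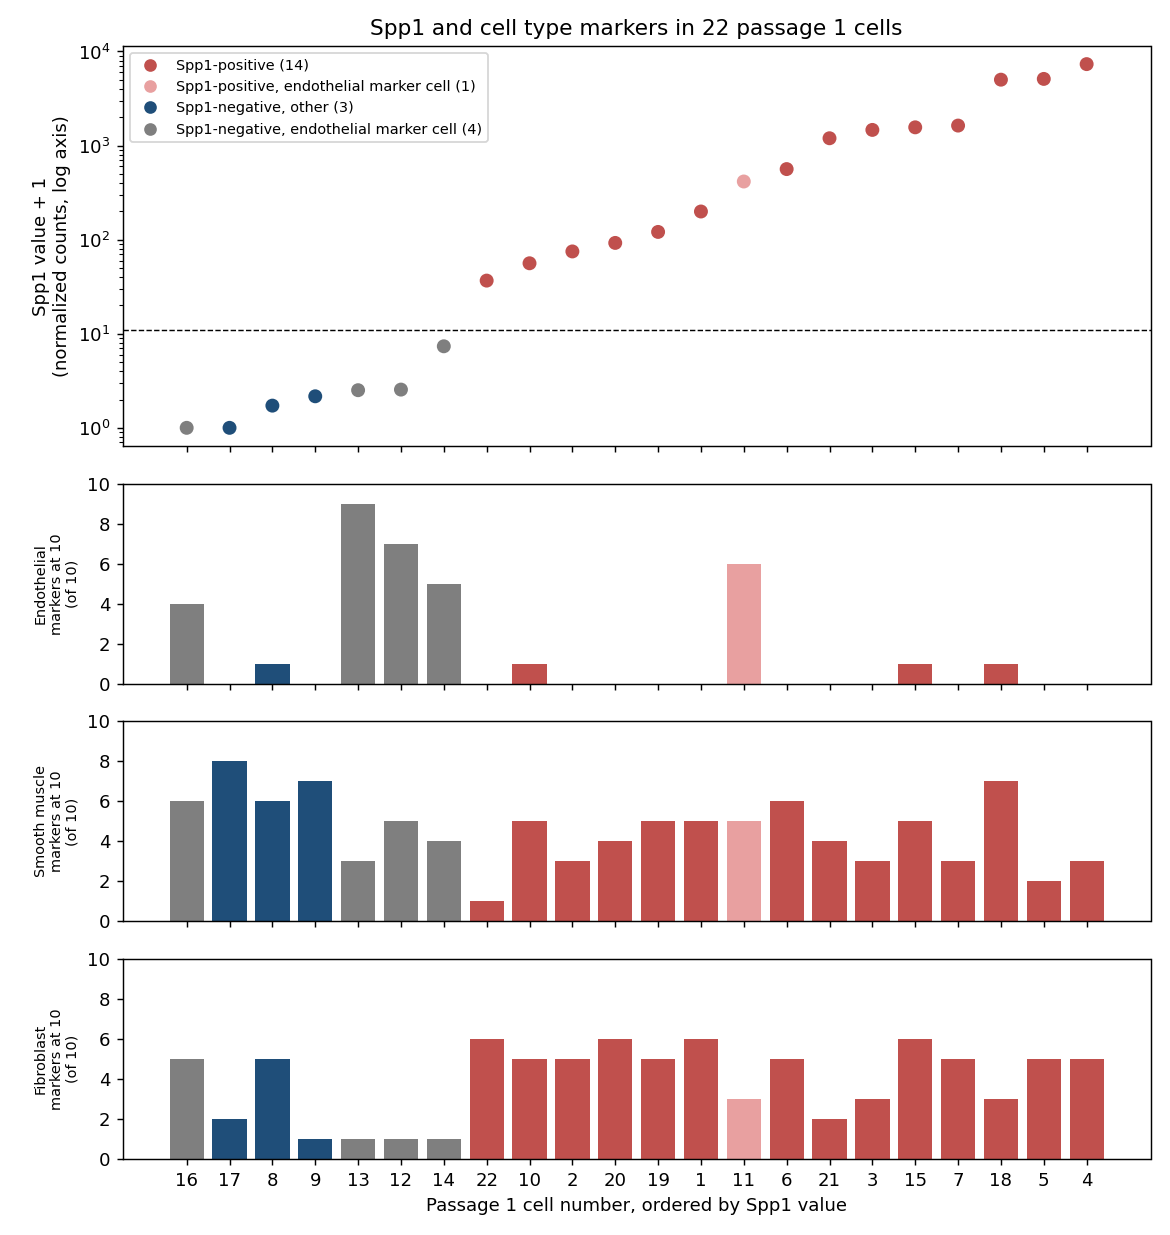
Top, Spp1 in each of the 22 passage 1 cells as normalised count + 1 on a log axis, ordered by value, with the threshold of 10 dashed; below, how many of 10 endothelial, 10 smooth muscle and 10 fibroblast markers reached a value of 10 in the same cell. Of the 7 negative cells, 4 (grey) held 4 to 9 endothelial markers, and 1 positive cell (cell 11, pale red) held 6.

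The negative group was of mixed make-up. Cells 12, 13, 14 and 16 held 7, 9, 5 and 4 of 10 endothelial markers at a value of 10 and are called endothelial marker cells, having at least 3. Their summed endothelial marker value ran from 475 to 5153. The other 3 negative cells, 8, 9 and 17, had 6, 7 and 8 of 10 smooth muscle markers at 10 and a summed endothelial value of 0.737 to 38.2. In the positive group the summed endothelial value had a median of 6.56, and cell 11, with 6 endothelial markers and a sum of 1826, was its only endothelial marker cell. Cldn5 was listed at 0 in all 22 cells and Kdr, the VEGF receptor, at 0 in all 15 positive cells.

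The label of smooth muscle was checked against 10 markers. A positive cell held 1 to 7 of them at 10 (median 4) and a negative cell 3 to 8. Myh11, the smooth muscle myosin heavy chain, did not exceed 0.776 in any positive cell; it was at 10 in 0 of 15 cells, for which the exact 95% interval reaches 21.8%. Acta2, smooth muscle actin, ranged from 5.67 to 2959 in positive cells. Positive cells also held 2 to 6 of 10 fibroblast markers at 10 (median 5). Macrophage markers at 10 numbered at most 1 of 10 in a positive cell, and no more than 3 in a negative one. For comparison, of 28 genes marking lymphocytes, red cells, striated muscle and epithelium, none was at 10 in more than 1 of 15 positive cells (6.67%) or 2 of 7 negative cells (28.6%, Lck).

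The groups overlapped in depth. Total reads ran from 817021 to 1457821 in positive cells (median 1231605) and from 927254 to 1561129 in negative cells (median 1222934). The median number of genes with a read was 8523 and 8135, and the median mitochondrial share of reads was 5.43% and 5.09%. A cycling cell, with Mki67 or Top2a at 10, was 11 of 15 positive (73.3%, exact 95% interval 44.9% to 92.2%) and 5 of 7 negative (71.4%, 29.04% to 96.3%). Cell 21 stood apart with 4017 genes.

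A gene met the size rule when the means of the groups differed at least 2-fold after adding 1 and the gene lay on that side in at least 70% of the 105 pairs of a positive and a negative cell. The rule is one of size and has no error rate. Of 8462 genes kept, 621 were higher in positive cells by this rule (7.34%) and 471 were lower (5.57%), 52.4% had a ratio above 0 and the median log2 ratio over all of them was 0.06. The groups did not overlap at all for 1 gene in each direction (0.0118%), Spp1 itself, by the split, and Mertk. Without the 5 endothelial marker cells, 14 positive cells faced 3 negative ones, 1363 genes were higher (16.1%) and 640 lower (7.56%), 62.4% of genes had a ratio above 0 and the median of all genes moved to 0.43. The 434 genes higher in both comparisons were 69.9% of the first list and 31.8% of the second, and the 244 lower in both were 51.8% and 38.1%.

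The genes highest in Spp1-positive cells included a transcription factor of cartilage, 3 genes of the collagen matrix (Aspn, Col6a3 and Col12a1) and genes of the cytoskeleton and cell surface such as Map2, Megf10 and Tenm3. Sox9, the transcription factor that starts chondrocyte development (chromosome 11, 112782224 to 112787760), had a lowest value of 0.781, a median of 94.2 and a highest of 388 in positive cells, and 0 to 6.98 in the 7 negative cells. It was at 10 in 13 of 15 positive cells (86.7%, exact interval 59.5% to 98.3%) and in 0 of 7 negative cells, for which that interval reaches 40.96%. Cells 4 and 21 were the positive cells below 10, at 7.87 and 0.781, the groups overlapped only through cell 21, and the positive cell held the higher value in 97.1% of pairs. Its log2 ratio was 5.11, and 5.13 without the endothelial marker cells.

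Aspn encodes asporin, a small leucine-rich proteoglycan of collagen fibrils, and overlaps Cenpp. Its normalised count in positive cells ran from 0 through a median of 188 to 4316, and in negative cells from 0 to 12.4. It was at 10 in 10 of 15 positive cells and 1 of 7 negative ones, cell 12. The log2 ratio was 7.49, or 8.55 without cell 12. The cells highest in Aspn were 7, 5 and 19, of which cell 19 held a Spp1 value of only 119.8.

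Col6a3, a chain of the type VI collagen of the pericellular matrix, had a median of 123 and a highest value of 890 in positive cells. In the negative cells it was listed at 0 in 5 of 7, at 0.737 in cell 17 and at 12.8 in cell 16. Its log2 ratio was 5.80, or 7.19 without cell 16, and 89.5% of pairs were higher in the positive cell. Col12a1, a collagen that joins fibrils to other matrix, reached 271 in positive cells, was at 10 in 7 of 15, and did not exceed 0.756 in any negative cell.

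3 of the genes with the highest ratios had no read in any negative cell, so they have no fold. B830012L14Rik, a long intergenic noncoding RNA on chromosome 12, had a median of 234 and a highest value of 1367 and was at 10 in 10 of 15 positive cells. Tenm3, a teneurin adhesion protein, was at 10 in 9 of 15 with a highest value of 156. Megf10, a receptor for the engulfment of cells, was at 10 in 7 of 15 with a highest value of 192. Each was also at 0 in 5 of the 15 positive cells, so the groups overlapped at 0.

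Irs1, the adaptor of the insulin and IGF1 receptors, was at 10 in 10 of 15 positive cells with a median of 165, and its highest negative value was 6.97, in cell 12. Gm9747 lies over Irs1 in the annotation and was likewise at 10 in 10 of 15 positive cells, and reads of overlapping genes cannot be told apart here since no source used here says how strand was handled. B3galt1, a galactosyltransferase, was at 10 in 11 of 15 positive cells with a median of 112 and did not exceed 0.775 in a negative cell. Fmo2, a flavin monooxygenase, was at 10 in 10 of 15 positive cells and in cell 8 among the negative ones, at 27.4. The remaining 4 of the 15 highest, Map2, Rabgap1l, Zfp12 and AU041133, were at 10 in 4 to 7 positive cells and in 0 of 7 negative cells.

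**Figure D2:**
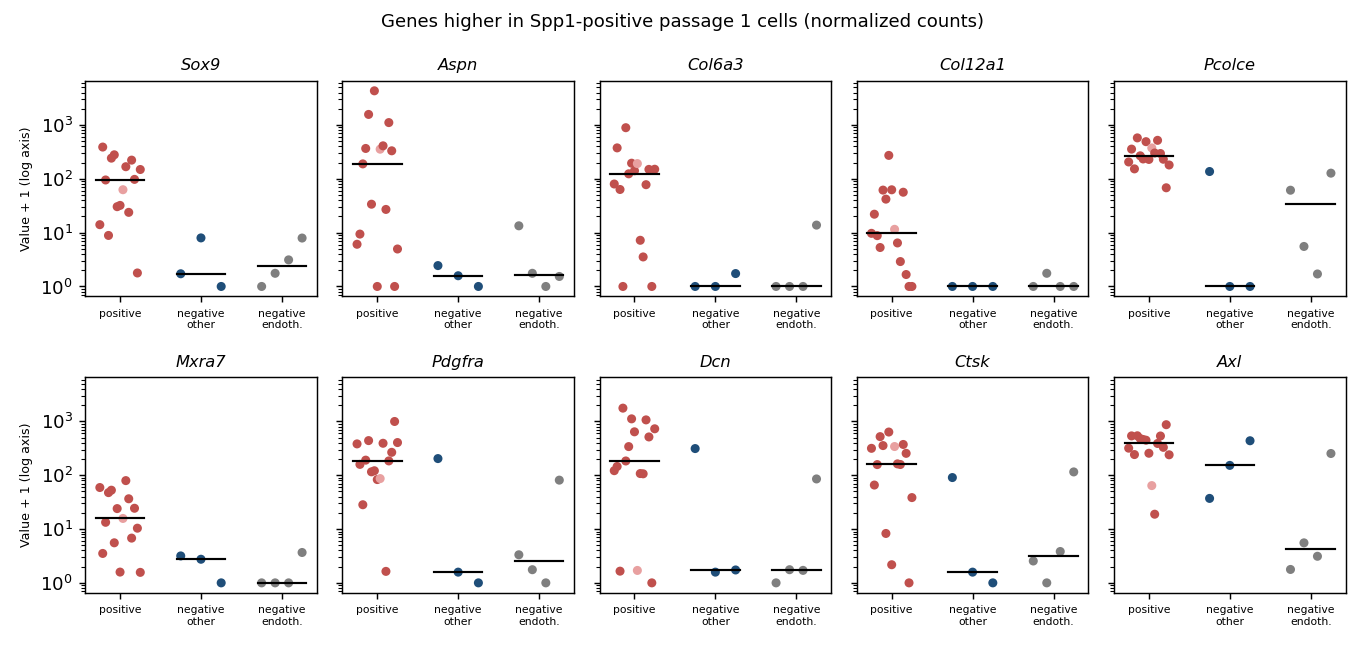
Normalised count + 1 on a log axis of 10 genes higher in Spp1-positive passage 1 cells, 1 point per cell, with 15 positive cells, the 3 other negative cells and the 4 negative endothelial marker cells; lines are medians, and pale red is cell 11. Sox9 reached 10 in 13 positive cells and in no negative cell, whereas Pdgfra, Dcn and Ctsk were also high in negative cells 8 and 16.

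A positive cell had 1 to 12 of the 15 highest genes at 10, with a median of 9. The single cell with 1 was cell 21, the one with 4017 genes. The 4 negative endothelial marker cells held 0 to 2 of the 15 and the 3 other negative cells 0 or 1. These genes were chosen for this difference, so the counts describe how widely each set was shared among the cells and are no test of it.

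Likeness to Spp1 was measured as the Spearman rank correlation, rho, over the 22 cells, which share 1 library set and differ in depth. Over the 7275 genes read in 50% or more of the cells the median Spearman rho was -0.03. The 10 highest and 5 lowest were chosen from these genes by this rho, so their values are no test of it. Mxra7, a matrix-remodelling associated protein, had the highest rho, 0.81, and 0.69 within the 15 positive cells. Its normalised count had a median of 14.7 and a highest value of 78.4 in positive cells and did not exceed 2.67 in negative ones, and the positive cell was higher in 93.3% of pairs. The log2 ratio of Mxra7 was 3.71.

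Pcolce, the enhancer of the proteinase that trims procollagen, followed with a rho of 0.77 and 0.475 within positive cells. It was at 10 in all 15 positive cells, from 67.2 through a median of 267 to 575. In the negative cells it was 136 in cell 8, 126 in cell 16, 60.4 in cell 12, 4.54 or less in cells 13 and 14, and 0 in cells 9 and 17. The groups overlapped only through cell 21, the lowest positive cell, and the log2 ratio was 2.64. Fbxo24 overlaps Pcolce in the annotation.

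The other genes most like Spp1 were Emc8, Aspn, Maged1, Efemp2, Senp5, Necap2, Bax and Hexa, with rho from 0.65 to 0.72. Efemp2 encodes fibulin 4, a protein of elastic fibre assembly; it was at 10 in every cell of both groups, with a mean of 334 ± 118 (SD) in positive and 149 ± 109 in negative cells. Maged1, a melanoma antigen family protein, had means of 519 ± 204 and 169.7 ± 134 and was also at 10 in every cell. Hexa encodes a subunit of lysosomal hexosaminidase and Bax a pore-forming protein of programmed cell death, and their means were 176 ± 150 against 49.7 ± 34.7 and 43.3 ± 31.7 against 17.6 ± 19.4. For Maged1, Efemp2 and Pcolce the positive cell was higher in 92.4%, 88.6% and 98.1% of pairs, although only Pcolce was at or near 0 in several negative cells. Within the positive cells alone the rho of these 8 genes ran from 0.325 for Efemp2 to 0.65 for Emc8. The positive cells were most of the cells used to choose the genes, so these values are no separate support.

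The genes with the highest ratios were mostly not those that tracked the amount of Spp1. Within the 15 positive cells Sox9 had a rho of -0.30, Col6a3 of -0.34, Col12a1 of 0.03 and B3galt1 of -0.54, so cells with more Spp1 did not hold more of these transcripts. Aspn was the exception among the 15 highest that was also among the 10 most like Spp1, with 0.71 over all cells and 0.56 within the positive cells.

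Genes lower in Spp1-positive cells fell into those carried by the endothelial marker cells and those also present in the other negative cells. Tspan9, a membrane tetraspanin (chromosome 6, 127961396 to 128143594), was at 10 in all 7 negative cells, from 35.4 in cell 8 through a median of 119 to 692 in cell 13. Among the positive cells it was at 10 in 3, cells 22, 6 and 10, at 59.5, 29.1 and 19.9, and at 0 in 8. The positive cell was the higher in 0.952% of pairs. Its rho with Spp1 was -0.88 over all cells and -0.72 within the positive cells, and its log2 ratio was -4.77, or -5.55 without cell 22.

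Mertk, a receptor kinase for the clearance of dying cells (chromosome 2, 128698956 to 128802894), had no read in any of the 15 positive cells and a read in all 7 negative ones. It was highest in the 3 negative cells that are not endothelial marker cells, at 12.99 in cell 8, 150 in cell 9 and 51.6 in cell 17. In the negative endothelial marker cells it lay between 0.756 and 2.32. Its difference therefore rests on few reads in 4 of the 7 cells, and no fold is given.

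Itga3, the integrin chain that pairs with beta 1 to bind laminin, was at 10 in 5 of 7 negative cells and in 0 of 15 positive cells, where it did not exceed 0.840. Tspan2, also a tetraspanin, was at 10 in 4 of 7 negative cells and 2 of 15 positive ones. Cav2, a caveolin of membrane pits, had a median of 653 in negative and 52.7 in positive cells and a rho of -0.74, and its groups overlapped between 62.8 in negative cell 8 and 425 in positive cell 6. Dusp19, a phosphatase of the MAP kinase pathway, was 75.1, 130 and 140 in cells 8, 9 and 17, 15.1 to 34.7 in the endothelial marker cells and 0 to 32.7 in positive cells. Exosc1 and Uxt, an RNA exosome subunit and a chaperone-like protein, completed the 5 genes least like Spp1, with rho of -0.76 and -0.75.

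Esam, Ecscr, Myct1, Car8, Shroom3 and Tspan18 were highest in endothelial marker cells. Esam, an endothelial adhesion molecule, was 48.8 to 1380 in those 4 cells, 9.57 in cell 17, 0 in cells 8 and 9, and at most 2.90 in any positive cell. Ecscr, an endothelial receptor of cell migration, was 195 to 924 in the 4 cells, at most 0.737 in the other 3 negative cells, and 56.8 in positive cell 11 against a positive median of 0. Of these 6 genes only Myct1 still met the size rule once the endothelial marker cells were left out, at 0, 0.722 and 17.7 in the 3 negative cells. Sorbs2, Spata13, Itga3, Tmem171, Htr1b, Tspan2, Tspan9, Mertk and 2610008E11Rik also met it then. The choice of these genes required them to keep their direction in that comparison, so nothing is read from the count.

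**Figure D3:**
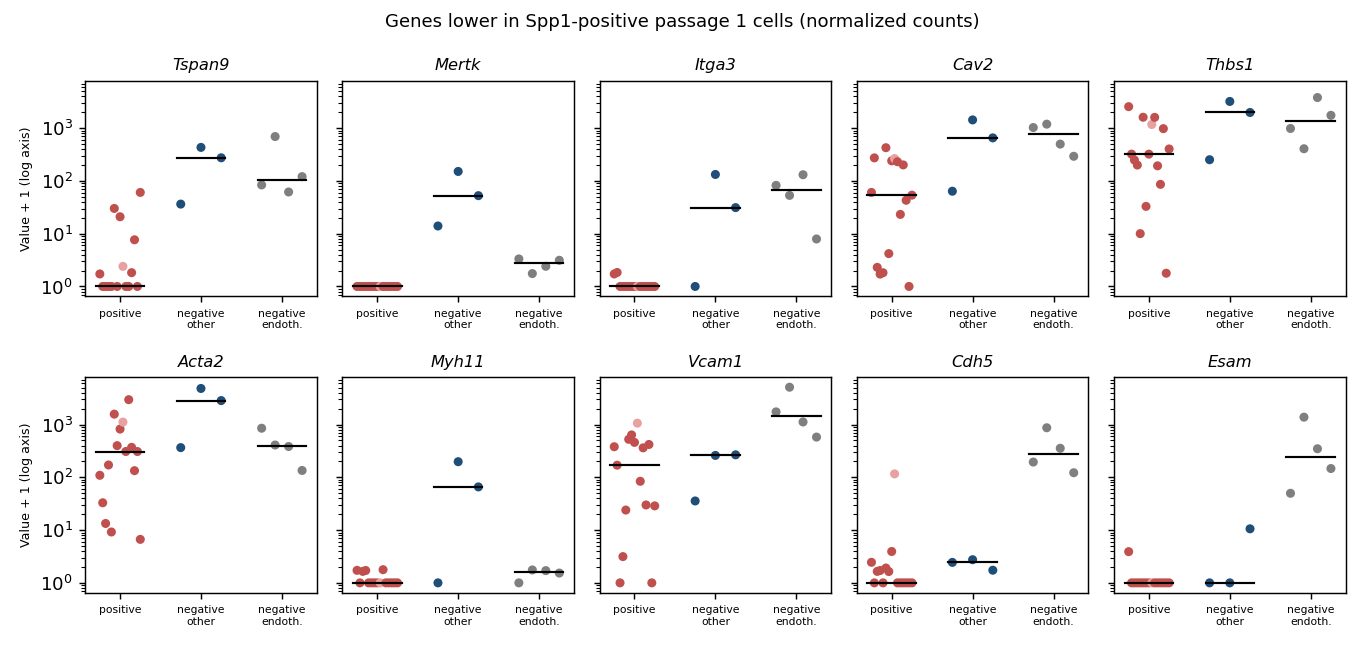
Normalised count + 1 on a log axis of 10 genes lower in Spp1-positive passage 1 cells, 1 point per cell, grouped as positive, other negative and negative endothelial marker cells, with lines at medians and pale red for cell 11. Tspan9 was at 10 in all 7 negative cells, Mertk and Myh11 were highest in other negative cells, and Cdh5 and Esam in endothelial marker cells.

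Endothelial markers as a list had a median log2 ratio of -3.31 over the 7 of 10 kept, all below 0 and 4 meeting the size rule downwards (Pecam1, Cdh5, Emcn and Erg). Without the endothelial marker cells the median was -0.16 and none of the 7 met it. The median also moved with single cells, to -4.59 without cell 11 and -2.46 without cell 13. The list defines those cells, so these values show only where they stood. Vcam1 and Icam1, adhesion molecules for leukocytes, met the rule downwards with log2 ratios of -2.22 and -3.45, or -1.26 and -1.50 without cell 13, and turned to 0.25 and 3.29 without the endothelial marker cells.

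Some fibroblast markers were higher in Spp1-positive cells at passage 1. Of 10 markers 6 were kept, all 6 had ratios above 0, and 4 met the size rule upwards (Pdgfra, Dpt, Dcn and Serpinf1) against 7.34% of all genes; the median log2 ratio was 2.44 beside 0.06 for all genes. Leaving out cell 8 moved that median to 3.32, and without the endothelial marker cells it was 2.09. With the same split at passage 2 the median was -0.0089 over 7 kept, beside -0.27 for all genes, with 3 above 0, none meeting the rule upwards and 1 downwards. The marker list was chosen with earlier results of these data known, and the list describes these cells without naming them. Of the other marker lists, Csf1r was the 1 macrophage marker of 10 kept, with a log2 ratio of 0.97. The pericyte list had a median of 0.37 over 4 kept and the Schwann list -1.54 over 2. Lck and Fabp4, kept for lymphocytes and adipocytes, had -2.89 and 0.73. Of 9 chondrocyte and osteoblast markers 5 had no read at passage 1. The median of that list, 2.90, rests on Sox9, itself among the highest ratios, and Runx2, whose groups overlapped. At passage 2 that median was -2.77 over 3 kept.

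Pdgfra, the PDGF receptor alpha, was at 0.634 to 996 in positive cells with a median of 183. In the negative cells it was 203 in cell 8 and 80.02 in cell 16, and at most 2.32 in the other 5. The log2 ratio of Pdgfra was 2.61, or 4.10 without cell 8. Dcn, decorin of the collagen matrix, had a positive median of 183 and was likewise 312 in cell 8 and 84.3 in cell 16 and at most 0.756 in the other 5 negative cells, with a log2 ratio of 2.98, or 4.88 without cell 8. Dpt, dermatopontin, had no read in a negative cell and at most 95.2 in a positive one. Cells 8 and 16 thus held Pdgfra, Dcn and Pcolce at values within the positive range while holding 1 and 0 reads of Spp1.

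Matrix genes met the size rule in both directions. Of 27 listed, 22 were kept, 8 met it upwards and 2 downwards, beside 7.34% and 5.57% of all genes, and the median log2 ratio was 0.73 beside 0.06. Without the endothelial marker cells 6 met it upwards and none downwards, beside 16.1% and 7.56% of all genes, and the median of 0.47 lay near the 0.43 of all genes. Col3a1, the type III collagen chain, had a median of 266 in positive and 25.6 in negative cells and a log2 ratio of 2.73, which was 2.65 without those cells. Col1a1 and Col1a2, the chains of type I collagen, had log2 ratios of 1.41 and 1.24, which moved to 2.09 without cell 17 and 1.89 without cell 8 and were 0.46 and 0.48 without the endothelial marker cells. Col5a2 and Col8a1, a fibrillar and a network collagen, were lower, at -1.01 and -1.62, with Col8a1 at -0.70 without cell 12. Col5a2 turned to 0.42 without the endothelial marker cells. Fn1 and Bgn, fibronectin and biglycan, differed by -0.36 and 0.29 and overlapped widely.

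Of 20 contractile genes listed, 16 were kept, 3 met the size rule downwards (Acta2, Myh11 and Synpo2), beside 5.57% of all genes, and none upwards, and the median log2 ratio was -0.74. Against the 3 negative cells that are not endothelial marker cells, 10 of 16 met it downwards, beside 7.56% of all genes. The median was then -1.64, and Acta2, Actg2, Tagln, Myh11, Myl9 and Mylk were among the 10. Acta2 was 364 in cell 8, 4826 in cell 9 and 2843 in cell 17, with a positive median of 307 and a highest positive value of 2959 in cell 18. Its log2 ratio of -1.34 moved to -0.58 without cell 9. Myh11 was 0 in cell 8, 197 in cell 9 and 64.8 in cell 17, and below 1 in every other cell.

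The contractile median depended on the cells and the threshold used. It was -0.02 without cell 9 and -0.64 without cell 17. It turned to 0.79, and Acta2 to 0.53, without the 25% of cells lowest in genes read, which are cells 5, 7 and 21 among the positive and 9, 14 and 17 among the negative cells. With a Spp1 threshold of 200 it was 0.15, and with a threshold of any read -0.040. Acta2, Actg2 and Actb are near-identical actins, and Pcsk7 overlaps Tagln, so these values are uncertain where reads could be assigned to either.

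Receptors for osteopontin did not separate the groups. Of 11 listed, 9 were kept and none met the size rule, with a median log2 ratio of -0.11 beside 0.06 for all genes. Without the endothelial marker cells 1 met it upwards and 2 downwards, beside 16.1% and 7.56% of all genes. The median was then 0.51, beside 0.43 for all genes. Itgav, the alpha V integrin chain, had a median of 291 in positive and 90.9 in negative cells and was at 10 in 14 of 15 and 5 of 7, and its log2 ratio of 0.67 became 1.49 without cell 12 and 1.60 without the endothelial marker cells, with 83.3% of pairs higher in the positive cell. Itgb1, the beta 1 chain, had medians of 451 and 541, and Cd44 medians of 160 and 279, with groups that overlapped throughout. Itga8 was 209 and 263 in cells 9 and 17, 0 in cell 8, and at 10 in 1 positive cell, cell 18, at 68.5. Itgb6 and Itgb8 were not kept for low values.

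The phosphoprotein genes next to Spp1 on chromosome 5, Ibsp, Dspp and Mepe, had no read in any passage 1 cell, and Dmp1 did not exceed 0.776. Spp1 was thus the only one of the 5 bone and tooth phosphoproteins detected at 10. Of 25 osteochondrogenic and calcification genes, 9 were kept and 6 had no read. Sox9 met the size rule upwards and Bmp4 downwards, beside 7.34% and 5.57% of all genes. Runx2, the osteoblast transcription factor, had means of 13.9 ± 22.6 and 8.26 ± 13.2, which overlapped, and Mgp, the matrix inhibitor of calcification, 801 ± 850 and 325 ± 291. Bmp4, a bone morphogenetic protein, had a log2 ratio of -1.74, or -1.12 without cell 14, and 0.41 without the endothelial marker cells.

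Most proteases that can cut osteopontin did not meet the size rule. Of 20 proteases and inhibitors 15 were kept, and Ctsk met the size rule upwards and Plaur downwards, beside 7.34% and 5.57% of all genes. Ctsk, the collagen-cutting cathepsin K, had a positive median of 161 and was 89.5 in cell 8, 114 in cell 16 and at most 2.83 in the other 5 negative cells, with a log2 ratio of 2.88, or 3.75 without cell 16. Plaur, the urokinase receptor, was lower at -2.18. Of 17 matricellular genes 15 were kept, of which 2 met the rule upwards and 1 downwards, beside the same shares of all genes. Thbs1, thrombospondin 1, was lower, with a median of 321 in positive and 1749 in negative cells and a log2 ratio of -1.45, and Ccn3 and Tgfbi were higher by the rule. Tgfbi had reads in 1 negative cell, cell 8, at 101.8, and none in the other 6, so its log2 ratio of 1.14 has no value without that cell. The log2 ratio of Ccn3 moved from 2.21 to 3.30 without cell 17. Neither met the rule without the endothelial marker cells.

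Of 26 growth factor and receptor genes listed, 19 were kept, and 12 of them did not meet the size rule. The receptors Pdgfra, Pdgfrb, Tgfbr1, Egfr and Axl met it upwards and the ligands Pdgfa and Tgfb2 downwards, beside 7.34% and 5.57% of all genes. The median log2 ratio was 0.86 beside 0.06 for all genes. At passage 2 it was -0.41 over 16 kept, with 4 above 0, none meeting the rule upwards and 1 downwards. Axl, the receptor of GAS6 and a relative of Mertk, had a positive median of 388 and was 36.1, 151 and 436 in cells 8, 9 and 17; its log2 ratio was 1.59, or 2.34 without cell 17. Pdgfrb had a median of 213 in positive and 10.8 in negative cells, but was 455 in cell 8. Pdgfa had medians of 0.840 and 32.01 and did not meet the rule once the endothelial marker cells were left out.

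Among regulators known for the Spp1 gene, 24 were listed and 19 kept, with a median log2 ratio of 0.08 beside 0.06 for all genes. Egr1 and Fos met the size rule upwards and Creb1 downwards, beside 7.34% and 5.57% of all genes. Without the endothelial marker cells 3 met the rule upwards and 0 downwards, beside 16.1% and 7.56% of all genes. The median was then 0.79, beside 0.43 for all genes, and the log2 ratio of Creb1 was 1.08. Egr1, an early growth response factor, had a median of 1942 in positive and 216 in negative cells and a log2 ratio of 1.53. Fos, an AP-1 component, had medians of 161 and 11.3 and a log2 ratio of 1.57, or 2.90 without cell 16. Of 16 immediate early genes 15 were kept, 13 had ratios above 0, beside 52.4% of all genes, and Egr1, Fos and Nr4a1 met the rule upwards, beside 7.34%, with a median of 0.94. At passage 2 none of the 15 kept had a ratio above 0, beside 40.3% of all genes, 3 met the rule downwards and the median was -0.78.

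In the remaining lists few genes met the rule, which 7.34% of all genes met upwards and 5.57% downwards, at a median log2 ratio of 0.06. Of 20 S phase genes, all were kept and 1, Mcm6, met the size rule downwards, with a median of -0.01. Of 20 G2 and M phase genes 1, Ccnb2, met it upwards, with a median of 0.26. Without the endothelial marker cells the S phase median was 1.32 with 6 genes upwards, and the G2 and M phase median 0.96 with 4 of 20 upwards and 1 downwards. Beside them, 16.1% of all genes met it upwards and 7.56% downwards, at a median of 0.43. No glycolysis gene of 13 kept met it, at a median of -0.05. Of 12 lysosomal and lipid genes kept, Gpnmb and Abca1 met it upwards, and Abca1 was 108 in negative cell 8 and at most 2.21 in the other 6. Of 12 housekeeping genes 1, Tbp, met it upwards, with a median of -0.06 for the list, and Ywhaz, a 14-3-3 protein, had means of 2102 ± 452 and 2539 ± 470.4. Of 14 genes kept on the list of modulated smooth muscle and inflammation, Vcam1 and Icam1 met it, downwards, at a list median of 0.00. Without the endothelial marker cells that median was 1.52, beside 0.43 for all genes. Lgals3, galectin 3, had medians of 26.04 and 53.4.

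The same split was made at passage 2, in cells the rule did not use. There 8 of 45 cells held Spp1 at 10 or more, from 10.6 through a median of 64.3 to 1721, and 37 held 0 to 8.80. None of the 8 and 2 of the 37 were endothelial marker cells. Among the 8, passage 2 cells 15, 38, 23 and 41 lay close to the threshold, at 10.58, 10.59, 16.5 and 23.7. At passage 1 no cell lay between 6.36 and 35.7, so the 2 splits are not alike. Of 7845 genes kept at passage 2, 95 met the size rule upwards (1.21%) and 386 downwards (4.92%), and the median log2 ratio was -0.27. Of the 621 genes higher at passage 1, 521 were kept at passage 2, where 10 met the rule upwards (1.92%) and 26 downwards. The 10 and the 521 include Spp1, which met the rule by the split. Of the 521, 37.4% had a ratio above 0 against 40.3% of all genes. Of the 471 lower genes, 377 were kept, 19 met it downwards (5.04%) and 62.1% had a ratio below 0 against 59.7% of all genes. These shares lie near the background of passage 2.

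Sox9 had a log2 ratio of 0.11 at passage 2, was at 10 in 3 of 8 positive and 14 of 37 negative cells, and was the higher in the positive cell in 48.99% of pairs. Tspan9 was at 10 in 1 of 8 and 16 of 37 cells, with 38.01% of pairs higher in the positive cell and a rho with Spp1 of 0.04. Aspn was at 10 in 5 of 8 and 22 of 37 cells. Mxra7, Pcolce and Emc8 had a rho with Spp1 of 0.03, 0.12 and 0.03 over the 45 cells. The difference between the passages was not tested.

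**Figure D4:**
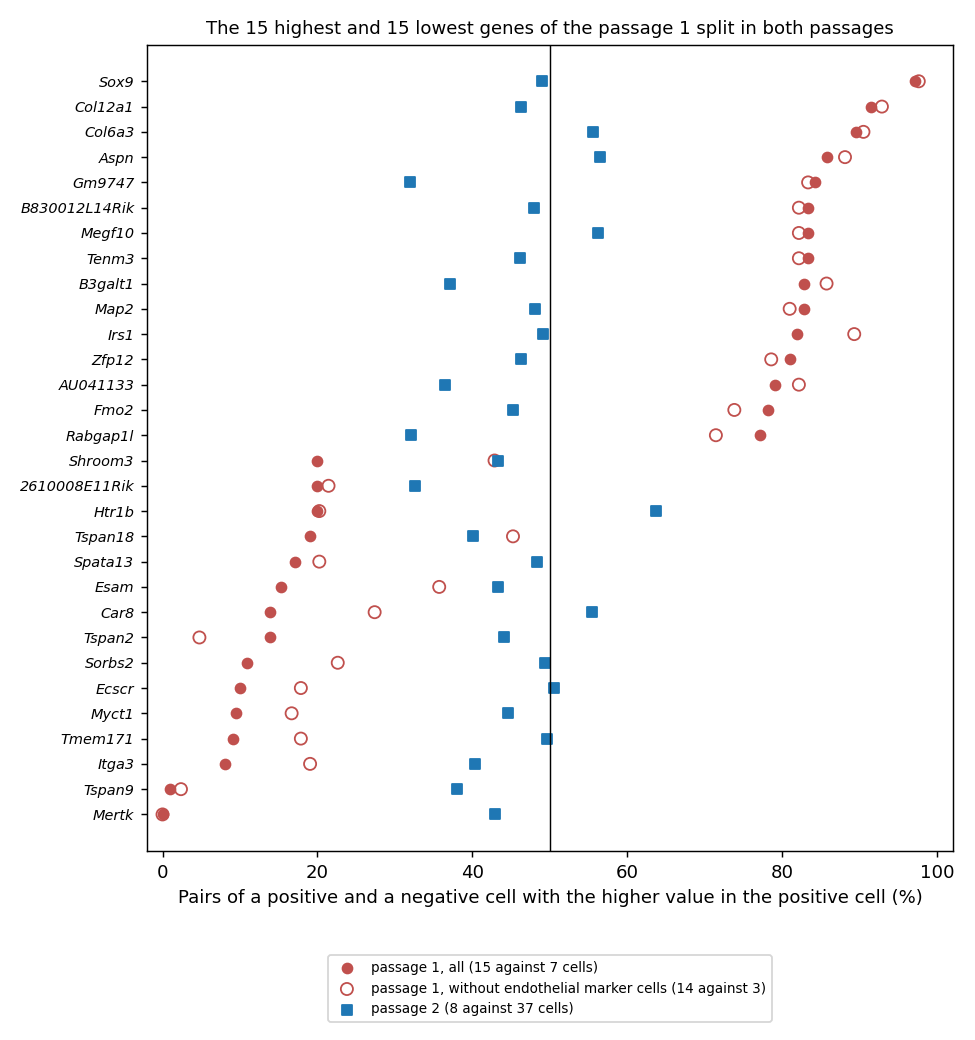
Share of pairs of a positive and a negative cell in which the positive cell held the higher value, in percent, for the 15 genes with the highest and the 15 with the lowest passage 1 ratios, at passage 1, at passage 1 without endothelial marker cells and at passage 2; 50% means no difference in rank. The genes were chosen from the filled red points; at passage 2 Sox9 stood at 48.99% and Tspan9 at 38.01%.

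The genes higher by the rule in both passages were Spp1, by the split, and Ass1, Col5a1, Cygb, G430095P16Rik, Gria3, Hivep2, Ptgs1, Sept9 and Trnp1, and they are named after their values were seen. Ass1, the argininosuccinate synthase of arginine synthesis, had a median of 49.8 in positive and 4.94 in negative cells at passage 1. At passage 2 its medians were 43.01 and 0, and its rho with Spp1 was 0.61 and 0.45. Cygb, the haem protein cytoglobin, had medians of 25.99 and 0 at passage 1 and 107 and 1.204 at passage 2, with rho of 0.53 and 0.48. Ptgs1, cyclooxygenase 1, was at 10 in 15 of 15 positive and 2 of 7 negative cells at passage 1, and in 3 of 8 and 1 of 37 at passage 2.

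Of those, single negative cells carried part of the level at passage 1. Cygb was 53.9 in cell 16 and at most 0.737 in the other 6. Sept9 was 40.8 in cell 13 and at most 0.737 in the other 6. Ptgs1 was 276 in cell 13, and its log2 ratio of 1.97 became 4.93 without it. Hivep2 was 68.5 in cell 17 and at most 2.67 in the other 6. Each of these was higher in the positive cell in more than 70% of pairs in both passages, by the rule.

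In overall profile the groups overlapped. The Spearman correlation between 2 cells over the 8462 genes had a median of 0.456 among the 14 positive cells that are not endothelial marker cells (0.331 to 0.559 over 91 pairs). It was 0.433 between them and the 3 other negative cells (0.374 to 0.545) and 0.404 between them and the 4 negative endothelial marker cells (0.319 to 0.552). The 3 other negative cells correlated with each other at 0.436 to 0.486, inside the range of the positive cells.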

How the data were processed

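RNA was measured in 67 single-cell libraries, 22 at passage 1 and 45 at passage 2. The deposited signal values are reads per gene over a size factor for each cell, a form read from the values, whose low steps are whole reads. The submitters' processing notes name BWA, SAMtools, HTSeq, DESeq and build GRCm38 without saying what each did; versions, strand and the handling of multi-mapping reads were not given in the sources used here. Of 39179 gene rows, 37693 had a symbol in GENCODE M21.

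Whole reads were recovered from the smallest step of each column: of 509576 nonzero values, 100% were whole to a tolerance of 0.001. No count test was applied to these reads, because the cells of a passage are 1 sample and were split by a measured value, so the number of genes it would call is not given. Kept genes had a mean of at least 10 in a group and were read in 25% or more of the passage 1 cells, and held 97.8% of reads; a gene could pass through 1 group alone. Log2 ratios compare log2(mean + 1) and understate differences of low genes. Shares have exact Clopper-Pearson 95% intervals, for counting error only. Reads from PCR without molecular identifiers are not independent molecules. No doublet caller was run.

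Named genes were Spp1, the 15 highest and 15 lowest ratios among genes read in 50% or more of whichever group was higher, on that side in at least 75% of pairs, with 1 direction whichever cell was left out and without endothelial marker cells; the 10 highest and 5 lowest correlations; and set members of 28 lists, 12 of them cell type markers. Genes that met the size rule in a list or in both passages were added after their values were seen. Members and lists were chosen with earlier results of these data known. Alternatives were other Spp1 thresholds, cells, filters, pseudocounts, scalings, summaries, and equal depth by drawing 500000 reads per cell, which all cells reached. The measures were tested on simulated data. The work used scipy 1.17.1, pandas 2.3.3, matplotlib 3.10.9 and numpy 2.4.6 in Python 3.11.15, with edgeR 4.0.16 in R 4.3.3 for TMM factors only.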

Additional observations from a re-analysis of the deposited data

Results flagged for a closer look

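Dixon's ratio at its 95% level was taken for 177 quantities over the 7 Spp1-negative passage 1 cells or the 8 Spp1-positive passage 2 cells. In 28, all genes on a log2(value + 1) scale in the negative cells, 1 cell lay far from the other 6. The rate of about 1 in 20 by chance is for normally distributed values, and the 28 are not compared with it. A gene at 0 in 6 of these cells is always flagged when the other cell has a read. The negative group also mixes endothelial marker cells with others. Values below are normalised counts.

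Cell 8 stood above the others in Fmo2 (27.4), Egr2 (39.7), Abca1 (108), Tgfbi (101.8) and Itgb8 (0.722). Cell 9 did so in Itga9 (167) and Rabgap1l (0.582), and cell 12 in Aspn (12.4), Irs1 (6.97), Gm9747 (15.5), Kcnj8 (1.55) and AU041133 (0.775). Cell 13 was highest in the endothelial receptors Kdr (173) and Tek (141), in Sept9 (40.8) and in Col12a1 (0.756), and lowest, at 0, in Necap2 and Col5a1. Cell 14 was highest in Ldha (1634), and cell 16 in Col6a3 (12.8), Cygb (53.9) and Mitf (1.07). Cell 17 was highest in the potassium channel regulator Abcc9 (530.3), in Hivep2 (68.5), Hgf (12.5), Trnp1 (1.47) and Cxcl1 (0.737). Cell 12 was lowest, at 0, in G430095P16Rik. Values under 2 are 1 or 2 reads.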

How the results depend on the processing

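No paired analysis was possible because the cells carry no numbers that pair them across groups and the results come from no test. The 621 higher genes became 1363 without endothelial marker cells, 2183 without cycling cells, 1156, 402 and 204 with a Spp1 threshold of any read, 50 and 200, and 328 with a mean of at least 50. The 471 lower genes became 1095 without cycling cells, 722 in cycling cells only, 807 without the quartile (25%) of cells lowest in genes read and 296 with a mean of at least 50. The contractile median turned from -0.74 to 0.79 without those 25%. The endothelial median was -0.16 without endothelial marker cells, -5.34 in cycling cells only and 0.28 with a threshold of any read, and the fibroblast median 6.05 without cycling cells and 0.74 with a threshold of 200. Leaving out 1 cell gave 574 to 850 higher and 418 to 582 lower genes, and medians of -1.20 to -0.02 (contractile), 0.58 to 0.92 (matrix), -4.59 to -2.46 (endothelial) and 2.22 to 3.32 (fibroblast). Cells 16, 9 and 21 gave the most higher, the most lower and the fewest lower genes.

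Of 2897 log2 ratios of 155 named genes over these settings, 2633 stayed within the spread between cells, 232 moved and 32 were counted as changes of sign. The spread is 1 pooled SD of log2 values between the cells of a group. Among the genes that changed sign it ran from 1.42 for Erg to 3.85 for Emcn. A ratio can therefore shift by a large amount and still count among the 2633. A change of sign was counted only for the 95 named genes that met the size rule. For the other named genes any change of sign is among the 2633 or the 232. With a threshold of any read, which leaves 2 negative cells, Esam turned to 0.19, Spata13 to 0.068, Itga3 to 0.090, Car8 to 0.30, Sorbs2 to 0.083, Tspan18 to 0.18, Col8a1 to 0.60, Vcam1 to 0.56, Icam1 to 2.66, Axl to -0.22, Tbp to -0.22, Pecam1 to 0.18, Cdh5 to 0.33, Emcn to 8.95, Erg to 0.28, Plaur to 1.21, Synpo2 to 0.65, Col6a2 to -0.33 and Tgfb2 to 0.15. With a threshold of 200, B3galt1 turned to -0.99, AU041133 to -0.035, Map2 to -0.56, Col5a1 to -0.13 and Col6a1 to -0.025. Without endothelial marker cells, Bmp4 turned to 0.41, Vcam1 to 0.25, Icam1 to 3.29, Creb1 to 1.08 and Col5a2 to 0.42. Without the 25% lowest in genes read, Acta2 and Synpo2 turned to 0.53, and without cycling cells Pecam1 turned to 3.50. For each of these the cause was not tested. A filter on the mean over all cells, chosen after seeing the data, gave 573 higher and 416 lower genes. For 0 of 7 negative cells the exact interval of a share reaches 40.96%.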
